A study of Mus musculus with 2 samples.

Results

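The 10 genes described here are the BMP receptor genes Acvrl1, Eng and Bmpr2, the inhibitory Smad genes Smad6 and Smad7, the target genes Id1, Id2 and Id3, the ligand gene Bmp4, and Tmem100, a membrane protein gene of arterial endothelium. They were chosen by name from the 24543 genes that both count tables list, and all 10 were found in both. Cells positive for CD31 and CD44 had been sorted from the caudal portion of mouse embryos at embryonic day 10 on a C57BL/6 background and sequenced with the 10x V3 chemistry, which counts unique molecular identifiers (UMIs) at the 3′ end of transcripts. Conditional knockout (cKO) embryos carried VEC-Cre and Nupr1 fl/fl, in which Cre is driven by the VE-cadherin promoter and acts from the endothelial stage onward, so that blood cells derived from endothelium also carry the deletion. Littermates with Nupr1 fl/fl or Nupr1 fl/+ were the controls, so both groups carry floxed alleles. Cells were tagged by genotype with hashtag oligos and pooled, and 2 such pools, the replicates, were sequenced. How many embryos went into each pool is not given in the sources used here, and p-values measure only the spread between these sums.

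BMP ligands bring together type I and type II receptors. ALK1, the type I receptor encoded by Acvrl1, binds BMP9 and BMP10 above all, whereas BMP4 signals mainly through ALK3 (encoded by Bmpr1a) and its relatives; both kinds pair with type II receptors such as BMPR2, and endoglin (Eng) is a co-receptor in endothelium. The receptors phosphorylate Smad1 and Smad5, which enter the nucleus with Smad4 and switch on Id genes, whose products hold basic helix-loop-helix factors away from DNA. Smad6 and Smad7 are induced by the same signal and feed back to block it. In the dorsal aorta, BMP signaling accompanies the formation of arterial endothelium and of the hemogenic endothelium from which blood stem cells arise by endothelial-to-hematopoietic transition (EHT).

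On GRCm38, in the GENCODE M21 annotation, Acvrl1 lies at chr15:101128522-101145336, Eng at chr2:32646595-32682669, Bmpr2 at chr1:59763400-59879014 and Smad6 at chr9:63953076-64022059. Id1 lies at chr2:152736251-152737410, Id2 at chr12:25093799-25097140, Id3 at chr4:136143497-136145755, Bmp4 at chr14:46383520-46390669 and Tmem100 at chr11:90030348-90036508. All are protein-coding, as is Smad7, and the span of Eng on its own strand also holds Gm26236, Gm47291 and Mir1954, and that of Bmpr2 holds Gm38125, so that reads of those transcripts could not always be told apart from theirs. Promoter windows of 300 bases, from 250 before to 50 after the RefSeq start on GRCm38.p6, were at hand for Bmpr2, Eng, Id2, Id3, Smad6 and Bmp4. Windows of Acvrl1, Smad7, Id1 and Tmem100 were not used here. Each window was searched for GGCGCC, a Smad1 and Smad5 motif that reads the same on both strands, and for GTCTG or its reverse complement CAGAC, a Smad-binding element. Neither motif overlapped the other in any window. The 4 windows that held a match are shown because they belong to receptors and targets whose levels are given below, with the matches in capitals and the gene's strand read from 5′ to 3′.
Id3, chr4:136143572-136143871, plus strand: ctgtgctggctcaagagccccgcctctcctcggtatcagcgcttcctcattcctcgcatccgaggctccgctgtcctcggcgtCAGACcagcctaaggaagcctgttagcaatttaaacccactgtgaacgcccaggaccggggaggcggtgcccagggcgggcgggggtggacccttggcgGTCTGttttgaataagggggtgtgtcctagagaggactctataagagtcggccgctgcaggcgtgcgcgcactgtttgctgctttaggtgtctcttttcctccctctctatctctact
Id2, chr12:25096043-25096342, minus strand: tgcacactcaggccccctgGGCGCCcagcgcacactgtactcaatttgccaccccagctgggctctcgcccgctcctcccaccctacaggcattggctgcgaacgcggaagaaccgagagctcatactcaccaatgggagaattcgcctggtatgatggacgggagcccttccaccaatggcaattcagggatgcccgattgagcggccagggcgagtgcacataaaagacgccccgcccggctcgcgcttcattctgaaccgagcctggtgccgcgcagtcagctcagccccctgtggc
Eng, chr2:32646345-32646644, plus strand: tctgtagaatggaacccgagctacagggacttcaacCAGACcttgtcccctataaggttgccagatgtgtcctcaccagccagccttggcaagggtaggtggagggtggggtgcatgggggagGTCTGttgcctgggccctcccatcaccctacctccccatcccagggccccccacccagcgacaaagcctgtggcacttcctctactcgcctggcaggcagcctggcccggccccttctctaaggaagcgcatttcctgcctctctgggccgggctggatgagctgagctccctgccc
Bmpr2, chr1:59764029-59764328, plus strand: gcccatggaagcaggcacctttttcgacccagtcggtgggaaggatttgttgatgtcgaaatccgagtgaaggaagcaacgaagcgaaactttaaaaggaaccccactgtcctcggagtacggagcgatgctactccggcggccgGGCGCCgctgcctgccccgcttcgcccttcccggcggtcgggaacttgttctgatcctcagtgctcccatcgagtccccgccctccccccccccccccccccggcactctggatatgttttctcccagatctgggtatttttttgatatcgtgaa
The matches begin 167 and 68 bases before the start in Id3, 231 bases before it in Id2, 214 and 127 bases before it in Eng, and 105 bases before it in Bmpr2. GGCGCC stood in 2 of the 6 windows and in 11.9% of all 32851 RefSeq windows of the same length, and GTCTG or CAGAC stood in 2 of the 6 and in 49.6% of all. A match of these letters is a description of the window and shows no binding.

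All 2139 deposited cells were kept, and no barcode was shared by the 2 pools. Cells were clustered without the 10 genes among the features, and clusters were named from markers. The clustering resolution was chosen so that the cells called EHT-like had under 0.1 of the Gja5 level of those called arterial-like. That condition was settled after seeing the data. The ratio was 0.085 at the resolution used and 0.29 at a lower resolution. The arterial-like cells (365, Gja5) included a cycling cluster of 105. The EHT-like cells (102) were led by Gfi1 and Procr, the venous-like cells (142) by Aplnr and Nrp2, and 2 of the 3 macrophage-like clusters (556 cells in all) had Mrc1 among their 10 leading genes, while the other had no gene of the macrophage list there. The other 2 groups are called by their genes. The Kitl/Esm1 cells (148) had the plexus markers Kitl and Esm1, but their Gja5, at 836 CPM (UMIs scaled to 1000000 in each sum; here over all sums together), was near the 986 CPM of the arterial-like cells. The arterial markers Gja4, Unc5b, Dll4 and Sox17 were higher here than in arterial-like cells, and Hey2 was lower. Of the other plexus markers, Apln was at 2.39 CPM here and 25.2 CPM in venous-like cells. Pgf was at 4.30 CPM here and 5.06 CPM in arterial-like cells. The Ptprc/Myb cells (222) were led by Hlf, Dlk1 and Kit, with no gene of the progenitor list among their 10 leading genes. Their Myb, at 129 CPM, was near the 118 CPM of EHT-like cells, and their Ptprc, at 24.4 CPM, was under the 104 CPM of macrophage-like cells. Procr was no higher in EHT-like than in arterial-like cells (213 and 218 CPM), while Gfi1, Neurl3, Runx1 and Kit were. Ephb4, a venous marker, was lower in venous-like than in arterial-like cells (50.6 and 62.1 CPM), while Nr2f2, Aplnr and Nrp2 were higher. UMIs of each population were summed by genotype and replicate, so that each population gave 4 sums, 2 of control and 2 of cKO. These sums held 18 to 243 cells and 923844 to 13934809 UMIs. Pecam1, which encodes CD31, averaged 460 ± 43.3 CPM in arterial-like and 18.8 ± 8.15 CPM in macrophage-like sums (SD, n = 4). Cd44 averaged 70.9 ± 9.78 CPM in arterial-like, 84.8 ± 20.4 CPM in EHT-like and 5.88 ± 4.18 CPM in venous-like sums, the last a low level for cells sorted on CD44. Nupr1, the deleted gene, was at 55.4 and 63.6 CPM in the control and at 2.72 and 7.06 CPM in the cKO EHT-like sums. Xist was found in 94.6% and 98.7% of control cells, but in 3.49% of cKO cells of replicate 1 and 57.6% of those of replicate 2, so genotype and embryo sex cannot be told apart.

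The genes divided the endothelial populations in different ways. Smad6 and Tmem100 were high in arterial-like and Kitl/Esm1 cells and low in venous-like cells, whereas Acvrl1, Id1 and Id3 were high in all 3. In EHT-like cells, 9 of the 9 members tested were called lower than in arterial-like cells, where 38.9% of all genes were called. Their log2 fold changes ran from -0.51 for Smad7 to -5.54 for Tmem100. Tmem100 passed the filter on low counts only through its arterial-like level, and the Smad7 call was lost under 5 of 15 alternatives. In Ptprc/Myb cells 6 of the 8 members tested were lower again than in EHT-like cells, where 10.8% of all genes were called. Of these 6, Acvrl1 passed the filter through its EHT-like level, and 3 calls (Acvrl1, Eng and Id1) were lost under at least 1 alternative. No member passed the test between cKO and control. In each comparison edgeR's quasi-likelihood test was fitted to all genes that passed its filter on low counts, with p-values adjusted over all of them by Benjamini-Hochberg and a threshold of 0.05. Because the clusters were drawn on the same cells, a difference between populations describes them, and their genes were left out only as features. EHT-like cells were also selected for low Gja5, which favours lower levels of genes that follow it. Smad6 followed it with a Pearson r of 0.96 over the 24 sums. The part of this selection in the result was not tested. At the lower resolution, where the Gja5 ratio was 0.29, all 9 members tested were called lower in EHT-like cells. That EHT-like group of 205 cells held all 102 of the selected cells, so it does not test the selection.

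**Figure D1:**
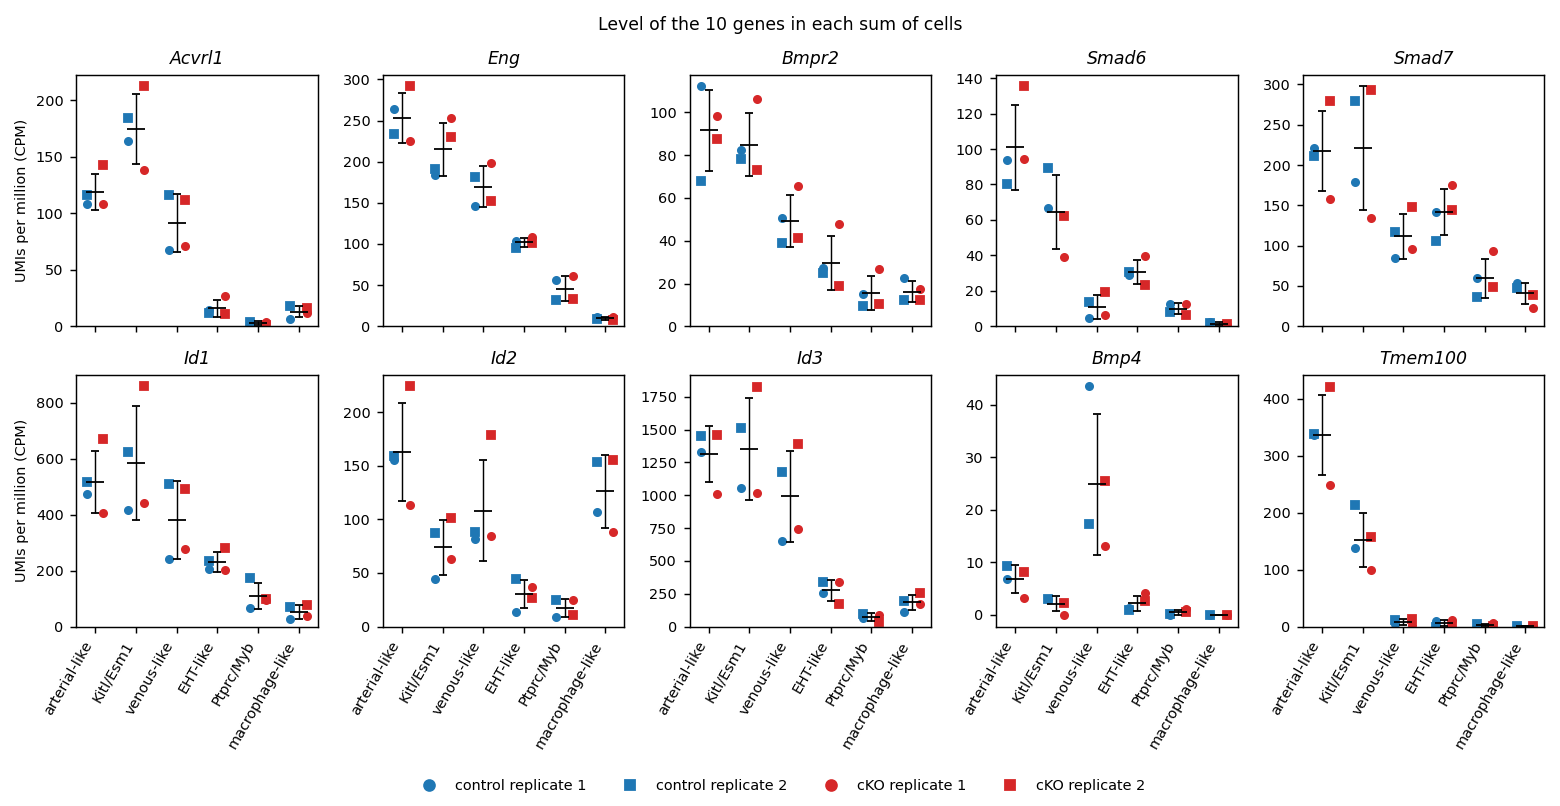
Level of each of the 10 genes (CPM, linear axis from 0 or just below it, scaled per gene) in the 4 sums of each of 6 populations, with the mean and SD in black; blue stands for control, red for cKO, circles for replicate 1 and squares for replicate 2. Tmem100 and Smad6 are high in the arterial-like and Kitl/Esm1 sums and low in the venous-like sums, Id3 is high in all 3, and Bmp4 is highest in the venous-like sums, where it reaches 43.5 CPM.

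Of the receptors, Acvrl1, which encodes the type I receptor ALK1, was at 108 and 116 CPM in control and 108 and 142 CPM in cKO in the arterial-like sums and at 14.5 and 11.6 CPM in control and 26.5 and 10.9 CPM in cKO in the EHT-like sums. All 4 EHT-like sums lay far under the lowest arterial-like sum. The difference passed the test (log2 fold change -2.78, SE 0.23, adjusted p = 1.16e-06). In the Kitl/Esm1 sums Acvrl1 was at 164 and 184 CPM in control and 139 and 212 CPM in cKO. Their mean was the highest of any population, although the cKO sum of replicate 1 lay within the arterial-like range. The gene was called higher there than in arterial-like cells (log2 fold change 0.62, SE 0.15, adjusted p = 0.00970), but the call was lost without control replicate 1, at 0.59 (adjusted p = 0.0563), in the control sums alone, at 0.68 (adjusted p = 0.0720), when cells were grouped one by one by marker UMIs (marker gates), at 0.23 (adjusted p = 0.569), and at the lower clustering resolution, at 0.41 (adjusted p = 0.0858). Venous-like sums, at 67.7 to 116 CPM, overlapped the arterial-like ones and gave -0.29 (adjusted p = 0.313). It passed with the genotype and replicate together as a block, at -0.31 (adjusted p = 0.0235), and with marker gates, at -0.73 (adjusted p = 0.00703). Ptprc/Myb sums held the least, 1.00 to 4.20 CPM, and lay under all EHT-like sums (log2 fold change -2.43, SE 0.40, adjusted p = 0.00209), a call lost in the control sums alone, at -1.86 (adjusted p = 0.0509). Macrophage-like sums held 6.77 to 18.2 CPM.

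Eng, the co-receptor endoglin, was at 264 and 234 CPM in control and 225 and 292 CPM in cKO in the arterial-like sums and at 104 and 95.5 CPM in control and 108 and 101 CPM in cKO in the EHT-like sums. The EHT-like values were close to each other and none reached the arterial-like range. Eng was lower in the test (log2 fold change -1.21, SE 0.13, adjusted p = 1.04e-05). Levels went down in the order arterial-like, Kitl/Esm1, venous-like, EHT-like, Ptprc/Myb and macrophage-like, and the ranges of neighbours overlapped only among the first 3. Venous-like sums, at 146 to 199 CPM, were called lower than arterial-like ones (log2 fold change -0.49, SE 0.14, adjusted p = 0.0195), and this call was lost without control replicate 1, at -0.41 (adjusted p = 0.124), without cKO replicate 2, at -0.36 (adjusted p = 0.146), and in the control sums alone, at -0.48 (adjusted p = 0.281). Ptprc/Myb sums, at 32.1 to 61.4 CPM, were lower than EHT-like sums (log2 fold change -1.15, SE 0.20, adjusted p = 0.00263). That call was lost in the control sums alone, at -1.15 (adjusted p = 0.0536), and the value was -2.38 (adjusted p = 1.62e-04) with marker gates.

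Bmpr2, the type II receptor, was at 112 and 67.7 CPM in control and 98.6 and 87.6 CPM in cKO in arterial-like and at 27.0 and 25.1 CPM in control and 47.6 and 18.6 CPM in cKO in EHT-like sums. The cKO sum of replicate 1 was the highest of the EHT-like sums, and all 4 still lay under the arterial-like range. The gene fell in the test (log2 fold change -1.52, SE 0.24, adjusted p = 1.79e-04). Kitl/Esm1 sums, at 73.3 to 106 CPM, lay within the arterial-like range and gave -0.05 (adjusted p = 0.891). Venous-like sums, at 39.1 to 65.8 CPM, were lower than arterial-like sums (log2 fold change -0.77, SE 0.19, adjusted p = 0.00773), a call lost without control replicate 1, at -0.68 (adjusted p = 0.0680), and in the control sums alone, at -0.88 (adjusted p = 0.0690). Between Ptprc/Myb and EHT-like cells the value was -0.92 (adjusted p = 0.118). It passed with the genotype and replicate as a block, at -0.91 (adjusted p = 5.91e-05), without cKO replicate 1, at -0.95 (adjusted p = 0.0420), with marker gates, at -1.23 (adjusted p = 0.0172), and at the lower resolution, at -1.54 (adjusted p = 0.00149).

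Of the inhibitory Smads, Smad6, which acts mainly on BMP signals, was at 93.7 and 80.1 CPM in control and 94.3 and 135 CPM in cKO in arterial-like sums and at 4.41 and 13.5 CPM in control and 6.54 and 19.4 CPM in cKO in venous-like sums. No venous-like sum came near the arterial-like range. The venous-like level was lower in the test (log2 fold change -3.22, SE 0.36, adjusted p = 4.83e-05), the largest difference among the 5 receptor and Smad members in this comparison. Smad6 passed the low-count filter there through its arterial-like level, since not every venous-like sum reached the cutoff. EHT-like sums, at 29.0, 30.9, 39.4 and 23.1 CPM in the order control replicates 1 and 2, then cKO replicates 1 and 2, lay between the arterial-like and venous-like sums. They were lower than arterial-like sums (log2 fold change -1.62, SE 0.21, adjusted p = 3.14e-05), and Ptprc/Myb sums, at 6.27 to 12.8 CPM, were lower again (log2 fold change -1.61, SE 0.25, adjusted p = 0.00145). Kitl/Esm1 sums, at 39.0 to 89.6 CPM, overlapped the arterial-like range, with -0.59 (adjusted p = 0.0807). That value crossed the threshold without control replicate 2, at -0.84 (adjusted p = 0.0263), without the low-count filter, at -0.60 (adjusted p = 0.0475), without integration, at -0.64 (adjusted p = 0.0305), and at the lower resolution, at -0.81 (adjusted p = 0.0203).

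Smad7, which blocks both BMP and TGF-beta signals, had the smallest log2 fold change of the members tested in EHT-like cells. Arterial-like sums had 222 and 211 CPM in control and 157 and 279.6 CPM in cKO, and EHT-like sums had 141 and 106 CPM in control and 175 and 144 CPM in cKO. The ranges of the 2 populations overlapped. The gene passed the test narrowly (log2 fold change -0.51, SE 0.19, adjusted p = 0.0409), and the call was lost without control replicate 1 (adjusted p = 0.143), without control replicate 2 (0.147), without cKO replicate 2 (0.185), in the control sums alone (0.0781) and in DESeq2 (0.0505). Venous-like sums, at 84.8 to 148 CPM, were lower than arterial-like sums (log2 fold change -0.87, SE 0.21, adjusted p = 0.00794), except without control replicate 1 (adjusted p = 0.0651). Ptprc/Myb sums, at 36.8 to 92.8 CPM, were lower than EHT-like sums (log2 fold change -1.25, SE 0.24, adjusted p = 0.00491). The lowest mean was that of the macrophage-like sums, 40.8 ± 13.4 CPM (SD, n = 4). Against arterial-like cells they gave -2.25 (adjusted p = 6.07e-06), and with only the 2 macrophage-like clusters that had Mrc1 among their leading genes -3.15 (adjusted p = 5.29e-08). The macrophage-like clusters were not alike in Smad7. Those 2 had means of 23.6 and 20.4 CPM, while the remaining cluster had 150 CPM, near the EHT-like level. Its sums ran from 67.3 to 232 CPM and held as few as 5 cells.

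The Id genes encode inhibitors of basic helix-loop-helix factors, which include Tal1 and its partners. Id3 was at 1331 and 1452 CPM in control and 1007 and 1461 CPM in cKO in arterial-like, at 654 and 1175 CPM in control and 746 and 1389 CPM in cKO in venous-like and at 256 and 339 CPM in control and 339 and 170.0 CPM in cKO in EHT-like sums. The venous-like sums of replicate 2 reached the arterial-like range and those of replicate 1 did not, while no EHT-like sum came near either. Id3 fell in EHT-like cells (log2 fold change -2.15, SE 0.21, adjusted p = 3.23e-06), fell again in Ptprc/Myb cells, at 34.1 to 95.2 CPM (log2 fold change -1.92, SE 0.29, adjusted p = 0.00135), and in venous-like cells gave -0.31 (adjusted p = 0.375). Macrophage-like sums, at 112 to 256 CPM, overlapped the EHT-like range and lay above all Ptprc/Myb sums.

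Id1 was at 474 and 517 CPM in control and 406 and 669.6 CPM in cKO in arterial-like and at 206 and 234 CPM in control and 204 and 281 CPM in cKO in EHT-like sums. The EHT-like sums all lay under the arterial-like ones and above those of the Ptprc/Myb cells. The gene was lower in EHT-like cells (log2 fold change -1.05, SE 0.18, adjusted p = 4.07e-04). Ptprc/Myb sums, at 66.0 to 174 CPM, passed as lower again (log2 fold change -1.07, SE 0.27, adjusted p = 0.0212), a call that was lost with the genotype and replicate as a block (adjusted p = 0.0558), without control replicate 1 (0.0707), cKO replicate 1 (0.0598) or cKO replicate 2 (0.156), and in the control sums alone (0.390). In Kitl/Esm1 sums, at 417 to 859 CPM, and venous-like sums, at 242 to 509.6 CPM, Id1 did not pass against arterial-like cells. With the genotype and replicate as a block it did, in opposite directions, at 0.20 (adjusted p = 0.0460) and -0.39 (adjusted p = 0.0455), and the venous-like value also passed with marker gates, at -0.81 (adjusted p = 0.0417).

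Id2 followed another order. It was at 156 and 159 CPM in control and 113 and 224 CPM in cKO in arterial-like, at 13.9 and 44.4 CPM in control and 36.7 and 26.3 CPM in cKO in EHT-like and at 107 and 154 CPM in control and 88.3 and 156 CPM in cKO in macrophage-like sums. The macrophage-like range lay within or just under the arterial-like range, and the EHT-like range lay far below both. Id2 was lower in EHT-like cells (log2 fold change -2.35, SE 0.29, adjusted p = 2.65e-05) and in Kitl/Esm1 cells, at 44.1 to 102 CPM (log2 fold change -1.08, SE 0.26, adjusted p = 0.0115). The second of these was lost with the marker grouping, at -0.79 (adjusted p = 0.115). Between macrophage-like and arterial-like cells the value was -0.18 (adjusted p = 0.559), and it was the only one of the 9 members tested there that was not called. Venous-like sums, at 82.1 to 179 CPM, gave -0.50 (adjusted p = 0.227), and passed with the genotype and replicate as a block, at -0.52 (adjusted p = 2.30e-04), and without cKO replicate 2, at -0.66 (adjusted p = 0.0213). For Ptprc/Myb cells, at 8.96 to 24.8 CPM, against EHT-like cells the value was -0.78 (adjusted p = 0.275), -0.82 (adjusted p = 2.60e-04) with the block and -2.06 (adjusted p = 4.08e-04) at the lower resolution.

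Bmp4, the ligand, was sparse. Venous-like sums held 43.5 and 17.3 CPM in control and 13.1 and 25.4 CPM in cKO, from 79, 23, 64 and 42 UMIs, and arterial-like sums held 6.78 and 9.28 CPM in control and 3.27 and 8.16 CPM in cKO, from 17, 27, 7 and 19 UMIs. Every venous-like sum was above every arterial-like sum, with control replicate 1 the highest. The gene was higher in venous-like cells (log2 fold change 1.88, SE 0.41, adjusted p = 0.00460), and without control replicate 1 the value was 1.43 (adjusted p = 0.0362). Bmp4 passed the low-count filter there through its venous-like level, since not every arterial-like sum reached the cutoff. The other populations had 13 UMIs in EHT-like, 9 in Kitl/Esm1, 7 in Ptprc/Myb and 0 in macrophage-like cells, all 4 sums together, and Bmp4 did not pass the filter in the comparisons with them. The count of 0 in 556 macrophage-like cells allows, at 3 counts, up to 0.54% of such cells with a UMI (exact upper limit 0.661%). Gdf2 and Bmp10, the genes of BMP9 and BMP10, were at 0 in all 24 sums. Outside these populations Bmp4 reached 26.7 to 136 CPM in the 3 sums of a mesenchymal cluster of 25 cells.

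Tmem100 had the largest fold change of the 10 members between endothelial populations. It was at 337 and 339 CPM in control and 248 and 421 CPM in cKO in arterial-like sums, at 137 and 214 CPM in control and 99.6 and 157 CPM in cKO in Kitl/Esm1 sums and at 4.41 and 11.3 CPM in control and 1.84 and 12.7 CPM in cKO in venous-like sums. The 3 ranges did not overlap. Kitl/Esm1 cells were lower than arterial-like cells (log2 fold change -1.09, SE 0.21, adjusted p = 0.00188), as were venous-like cells (log2 fold change -5.65, SE 0.47, adjusted p = 1.47e-05). In the venous-like comparison Tmem100 passed the low-count filter only through its arterial-like level, so that it had to come out lower. EHT-like sums held 16, 0, 18 and 4 UMIs, or 10.6, 0, 12.2 and 2.57 CPM, in the order control replicates 1 and 2, then cKO replicates 1 and 2. They were lower than arterial-like sums (log2 fold change -5.54, SE 0.41, adjusted p = 9.04e-07), and the gene passed the low-count filter in that comparison through its arterial-like level.

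The count of members called is set against the share of all genes called in the same fit. In EHT-like against arterial-like cells 38.9% of 9185 genes were called (20.8% lower, 18.1% higher), and of the 9 members tested 9 were lower. Of these, Tmem100 passed the low-count filter only through its arterial-like level, so that it had to come out lower, and 8 passed in each population on its own. In Kitl/Esm1 against arterial-like cells 17.7% of genes were called (8.56% lower, 9.12% higher), and 1 member was higher (Acvrl1) and 2 were lower (Id2 and Tmem100) of 9. In venous-like against arterial-like cells the background was 27.2% (14.8% lower, 12.5% higher), and 1 member was higher (Bmp4) and 5 were lower of 10, where Bmp4, Smad6 and Tmem100 did not pass the filter in both populations on their own. Between Ptprc/Myb and EHT-like cells it was 10.8% (6.19% lower, 4.57% higher), and 6 of 8 were lower, where Acvrl1 passed the filter through its EHT-like level. Macrophage-like cells differed from arterial-like cells in 61% of genes, with 33% lower and 28% higher, and 8 of 9 members were lower, where Smad6 and Tmem100 passed the filter through their arterial-like level. These fits share the arterial-like or the EHT-like sums and are not independent. With the genotype and replicate as a block, 2478 genes were called for Kitl/Esm1, 4107 for venous-like and 2737 for Ptprc/Myb cells, where the fits without it called 1601, 2596 and 996, and the members called were 4, 9 and 7. At the lower resolution, where cycling arterial cells joined the EHT-like cluster, values of EHT-like against arterial-like cells were nearer 0, at -1.57 for Acvrl1, -0.99 for Bmpr2, -1.11 for Id2, -1.07 for Id3 and -1.89 for Tmem100, and those of Ptprc/Myb against EHT-like cells farther from it, at -3.80 for Acvrl1 and -3.05 for Id3. With marker gates, values farther from 0 by over 1.5 times were -0.94 for Smad7 in EHT-like cells, -1.89 for Tmem100 in Kitl/Esm1 cells, -1.32 for Bmpr2 in venous-like cells, and -2.93 for Smad6 and -2.07 for Smad7 in Ptprc/Myb cells.

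**Figure D2:**
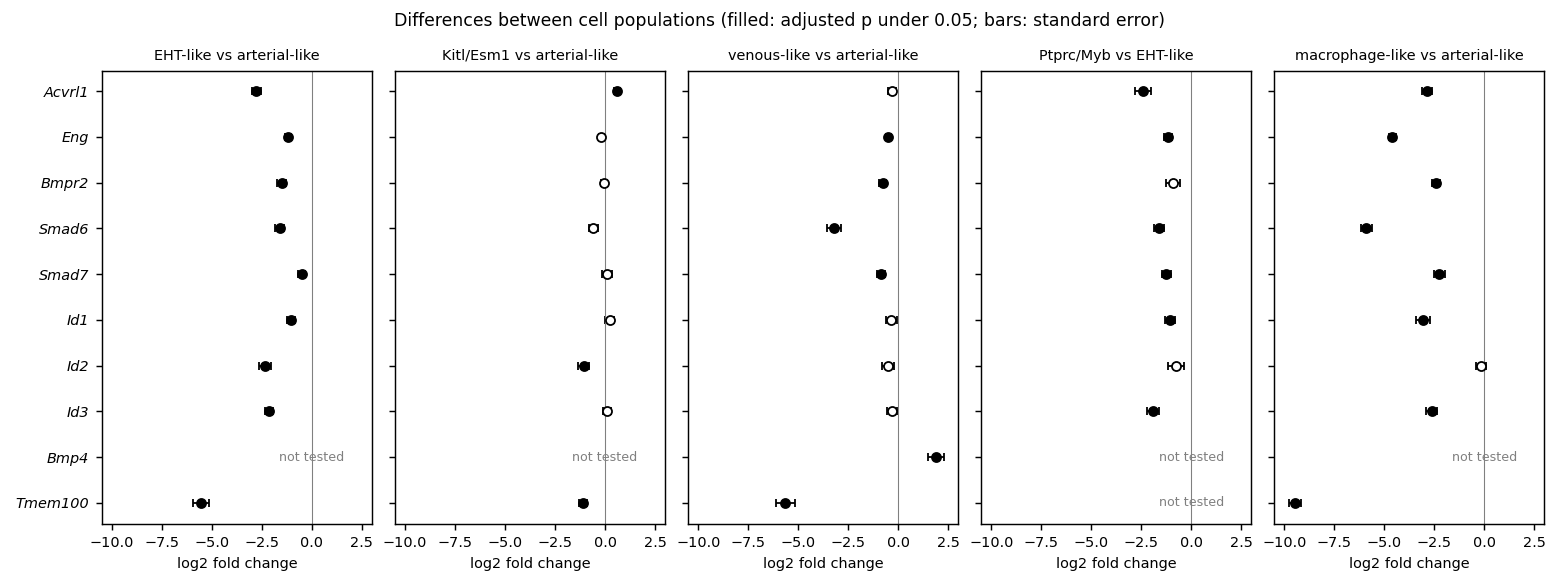
Fitted log2 fold change (x axis) of each member (rows) in the 5 comparisons between populations, with the standard error as a bar; filled points have an adjusted p under 0.05, and "not tested" marks members that did not pass the low-count filter. All points of EHT-like against arterial-like cells lie left of 0, and in venous-like against arterial-like cells Tmem100, at -5.65, and Smad6, at -3.22, lie far left of the other members while Bmp4 lies at 1.88.

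Arterial-like and EHT-like cells also differed in depth, with medians of 24380 and 46703 UMIs per cell, and in cycling genes. The 4 cycling markers (Mki67, Top2a, Cenpf, Ccnb1) summed to 392 to 711 CPM in arterial-like and to 92.4 to 185 CPM in EHT-like sums. With the cycling arterial cluster left out, all 9 members tested were still called lower in EHT-like cells, with Smad7 at -0.63 and Tmem100 at -5.60. The 5 macrophage markers summed to 13.5 to 25.3 CPM in arterial-like and 7.26 to 23.1 CPM in EHT-like sums, against at least 3281 CPM in macrophage-like sums. The 4 megakaryocyte markers summed to 1.40 to 12.5 CPM in arterial-like and 17.7 to 61.6 CPM in EHT-like sums, and the 4 granulocyte and monocyte markers to 4.39 to 12.4 and 62.6 to 140 CPM. The part of these in the result was not tested. No doublet was removed here beyond the hashtag doublets that the authors took out.

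The share of cells with a UMI was compared after each cell had been thinned to 6000 UMIs, with exact binomial limits at 95% in parentheses. Id3 was found in 98.0% (96.0 to 99.2) of arterial-like, 97.2% of venous-like and 54.0% (43.7 to 64.0) of EHT-like cells. Smad7 went from 65.0% (59.8 to 69.9) in arterial-like to 51.0% (40.8 to 61.1) in EHT-like cells, while Acvrl1 went from 49.2% (43.8 to 54.5) to 8% (3.52 to 15.2). The intervals of Smad7 overlapped and those of Acvrl1 and Id3 did not. Macrophage-like cells gave 8% (5.87 to 10.6) for Acvrl1, 21.1% for Smad7 and 36.4% for Id3. Smad6 was in 41.2% of arterial-like, 25.0% of EHT-like and 7.09% of venous-like cells. Megakaryocyte cells, taken as a type that should lack endothelial RNA other than free RNA, had a median of 82845 UMIs per cell before thinning and gave 1.45% for Id3, 0.966% for Acvrl1, 1.93% for Smad7 and 0.966% for Smad6. Of the megakaryocyte cells, 4 were from control replicate 1, 118 from control replicate 2 and 85 from cKO replicate 2. They therefore say little about free RNA in replicate 1. Tmem100 was in 68.1% of arterial-like cells, in 2 of 100 EHT-like cells (0.243% to 7.04%) and in 0 of 207 megakaryocyte cells (exact upper limit 1.77%). Unthinned, its EHT-like share of 12.7% (6.96 to 20.8) lay above the megakaryocyte share of 1.45% (0.300 to 4.18). Bmp4 was in 4.96% (2.02 to 9.96) of venous-like cells after thinning and in 0 of 167 granulocyte-monocyte cells (exact upper limit 2.18%). Its thinned share in arterial-like cells was 4.24% (2.39 to 6.89), so the shares did not show the venous-like excess of the sums. Unthinned, the shares were 30.3% in venous-like and 12.3% in arterial-like cells, at medians of 56722 and 24380 UMIs per cell. Bmp4 was also found in 32 of 207 megakaryocyte cells without thinning, or 15.5% (10.8 to 21.1), a share that rests almost wholly on replicate 2. In granulocyte-monocyte cells of a similar median depth (89030 UMIs), 2 of 168 had it, or 1.19% (0.144 to 4.23). Unthinned, the Smad7 shares were 94.0% and 96.1%, the Id3 shares 97.8% and 86.3% and the Acvrl1 shares 89.0% and 46.1% in arterial-like and EHT-like cells. Thinning left out 11 of 365 arterial-like and 2 of 102 EHT-like cells, and all intervals cover counting error only.

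**Figure D3:**
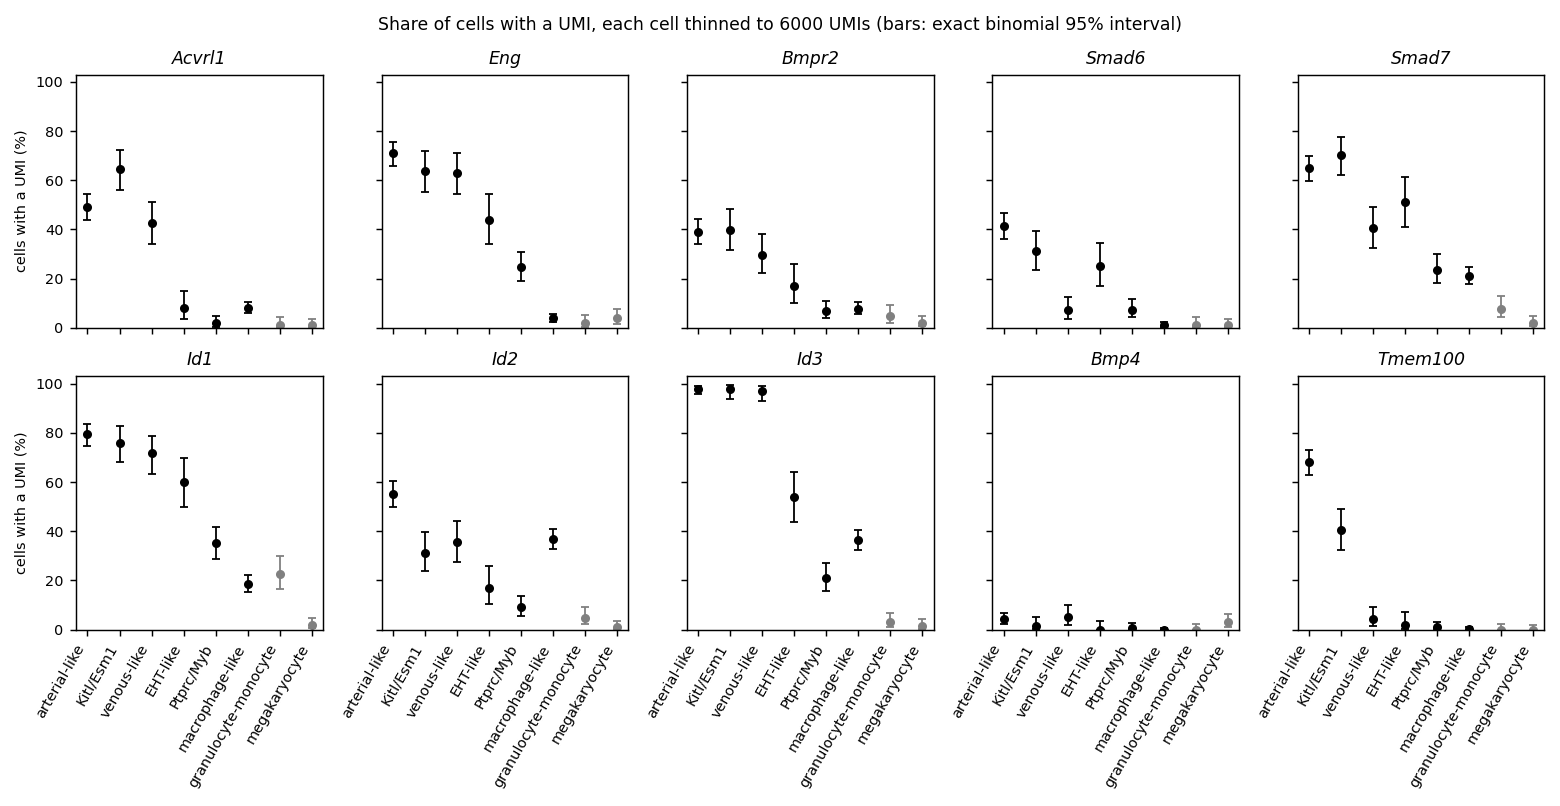
Percent of cells with at least 1 UMI of each member after every cell was thinned to 6000 UMIs, in the 6 populations (black) and in granulocyte-monocyte and megakaryocyte cells (grey); bars are exact binomial 95% intervals. The EHT-like share of Smad7 (51.0%) stays near its arterial-like share (65.0%), that of Acvrl1 (8%) lies level with the macrophage-like share and just above the grey points, and Id1 stands at 22.8% in granulocyte-monocyte cells.

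A list of 51 other genes held the BMP and TGF-beta pathway and 5 E proteins and partners, the basic helix-loop-helix factors on which Id proteins act. Of the 51, 33 were tested between EHT-like and arterial-like cells, and 19 were lower, 1 was higher and 13 did not pass, where 20.8% of all genes were lower and 18.1% higher. By role, 1 of 2 ligands, 5 of 7 other receptors, 2 of 5 other Smads, 7 of 9 inhibitors, 3 of 5 targets and 1 of 5 E proteins and partners were lower. The largest changes were those of Hey2, an arterial transcription factor (64.3 ± 8.48 CPM in arterial-like and 1.83 ± 1.50 CPM in EHT-like sums, SD, n = 4; log2 fold change -4.89, SE 0.33, adjusted p = 2.67e-07), and Msx1, a BMP-induced homeobox gene (log2 fold change -4.21, SE 0.64, adjusted p = 1.37e-04), whose EHT-like level was at most 1.28 CPM in any sum. Hey2 reached at most 3.40 CPM in the EHT-like sums. Both genes stayed under the low-count cutoff of 5.41 CPM there. They passed the filter only through their arterial-like level, so that they had to come out lower, and the count of 19 includes such genes. Hey1, which also answers to Notch, fell from 184 ± 45.6 to 35.0 ± 17.1 CPM (log2 fold change -2.31, SE 0.28, adjusted p = 1.79e-05). Acvr1, the type I receptor ALK2, fell from 23.6 ± 2.32 to 4.30 ± 2.16 CPM (log2 fold change -2.29, SE 0.28, adjusted p = 2.45e-05). Not every EHT-like sum of Acvr1 reached the cutoff either. The 1 gene that rose was Tal1, from 43.5 ± 9.03 to 73.5 ± 18.1 CPM (log2 fold change 0.87, SE 0.19, adjusted p = 0.00235). Tal1 is a basic helix-loop-helix factor of blood formation, listed with the E proteins and partners and not with the pathway. Smad1, a signal carrier, was lower (log2 fold change -0.77, SE 0.19, adjusted p = 0.00568), while Smad5 had 0.05 (adjusted p = 0.883). Bmpr1a, which encodes ALK3 and was named after its values were seen, was at 20.5 ± 6.59 CPM in arterial-like sums, 0 to 1.21 CPM in venous-like and 0 to 3.09 CPM in Kitl/Esm1 sums. It passed the low-count filter only through its arterial-like level, and was lower in the venous-like cells (log2 fold change -4.85, SE 0.46, adjusted p = 6.52e-06) and in the Kitl/Esm1 cells (log2 fold change -4.26, SE 0.57, adjusted p = 8.29e-05). In the other comparisons, 8 genes of the list were higher and 8 lower of 33 for Kitl/Esm1 cells, 6 and 15 of 33 for venous-like cells, 1 and 7 of 27 for Ptprc/Myb against EHT-like cells, and 2 and 28 of 34 for macrophage-like cells, against 17.7%, 27.2%, 10.8% and 61% of all genes called in those fits.

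Between cKO and control, no gene of 9900 was called in arterial-like cells (0%), where 86 had an unadjusted p under 0.05, and DESeq2 called 0. In EHT-like cells 1 of 8526 was called (0.0117%), Nupr1 itself (log2 fold change -3.55, SE 0.47, adjusted p = 0.0488), and 54 had an unadjusted p under 0.05. None of the 51 other listed genes was called in either population. None of the 10 members tested in arterial-like cells and none of the 9 tested in EHT-like cells passed, also with the replicate as a block, which called 11 and 15 genes in all. The fitted values of the members ran from -0.47 (Bmp4, SE 0.48) to 0.42 (Smad6, SE 0.26) in arterial-like cells and from -0.23 (Id3, SE 0.32) to 0.50 (Acvrl1, SE 0.48) in EHT-like cells, with SEs of 0.25 to 0.48 and of 0.28 to 0.94. With 2 sums against 2, an exact permutation test cannot give a p below 0.333. The replicates went opposite ways in the arterial-like cells. In replicate 1, 9 of the 10 members were lower in cKO, and in replicate 2, 9 of 10 were higher. Smad7, for example, differed by -0.49 in replicate 1 and by 0.40 in replicate 2 on the log2(CPM + 1) scale. In EHT-like cells 9 of 10 were higher in cKO in replicate 1, and 5 were higher in replicate 2. There Smad7 was higher in cKO in both replicates, by 0.31 and 0.43, and its adjusted p was 0.67 with the replicate as a block. It was singled out after its values were seen.

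**Figure D4:**
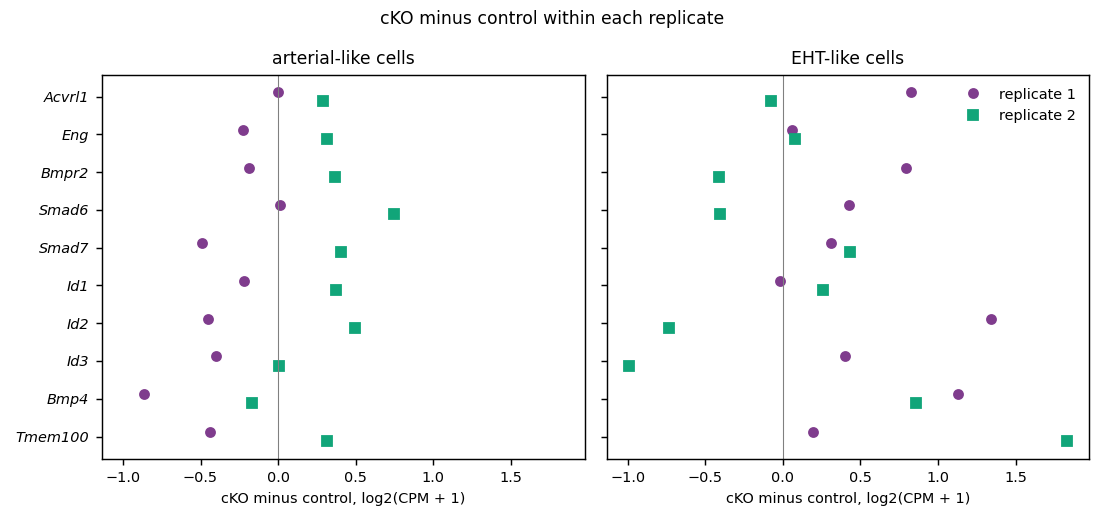
Difference between cKO and control within each replicate, on the log2(CPM + 1) scale, for each member in arterial-like and EHT-like cells; each point is 1 sum minus another, with no error of its own. In arterial-like cells most points of replicate 1 (purple circles) lie left of 0 and most of replicate 2 (green squares) right of it.

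The pools themselves differed in some members. Over the 12 pairs of sums of the same population and genotype, Id1 was higher in replicate 2 in 12, with a median log2 difference of 0.77, and Bmpr2 was lower in replicate 2 in 12, with a median of -0.57. Id2 and Id3 were higher in replicate 2 in 10 of 12 pairs each. Each pool is a single library, and the pairs within it share it. Replicate 2 also had deeper cells, with medians of 62116 (cKO) and 58048 (control) UMIs per cell against 45609.5 and 38416.5 in replicate 1. The part of depth in these differences was not tested.

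Over the 24 sums of the 6 populations, the 2 members most alike were Acvrl1 and Id3 (Pearson r = 0.99 of log2(CPM + 1)), and the least alike were Smad6 and Id2 (0.10). The sums share 2 libraries and differ in depth, and r describes them only. Of 7729 other genes with a mean of at least 10 CPM, those most like Eng were Pxdn, Cdh5 and She, and those most like Smad6 were Vwf, Gja5 and Igsf3. Tmem100 was most like Emp2, Hey2 and Ltbp4, and Bmp4 most like Bgn, Cdc42ep4 and Enho. Acvrl1 and Id3 had the same 3 genes, Fam114a1, Maged1 and Vim. Bmpr2 was most like Map4k4, Aplp2 and Itgb1, Smad7 most like Crtap, Tmc6 and Rnf215, Id1 most like Arf4, Praf2 and Ginm1, and Id2 most like Zfp703, Gngt2 and Anxa3. The highest r was 0.99 for Eng with Pxdn and the lowest of these 0.87 for Bmp4 with Enho. Within populations, Id1 and Id3 correlated across thinned cells with a Spearman rho of 0.15 to 0.52 in the 12 sets of 1 population and replicate (45 to 472 cells), a description of sparse counts from cells that share a library.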

How the data were processed

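Cells of 2 pools were measured by 10x scRNA-seq. The authors aligned reads to mm10 with Cell Ranger 5.0.1 (per the submitters' processing notes), kept hashtag singlets in Seurat, and deposited the counts of UMIs without normalization, with a genotype label for each cell (WT or KO; WT is called control here). All columns were mapped, and 0 were left aside. No further doublet calling was run. The members and gene lists were chosen with earlier results of these data known. Replicates were integrated in Seurat 5.3.0 (R 4.3.3; 2000 variable features asked for, 1970 left after the 10 members, listed pathway genes, Nupr1 and sex-linked genes were taken out, 20 principal components). Resolution 0.8 was the lowest at which every population had a cluster and EHT-like cells had under 0.1 of the arterial-like Gja5, a condition settled after seeing the data. The 101 cells under the stated limits (1800 genes, 6000 UMIs, 5% mitochondrial) were kept. Counts were summed by population, genotype and replicate and tested in edgeR 4.0.16 (filterByExpr, TMM, robust quasi-likelihood, Benjamini-Hochberg, 0.05), tested on simulated data. Fold changes are relative to the TMM scaling, under which the median log2 fold change of all genes was -0.019 for EHT-like, -0.023 for venous-like and -0.034 for macrophage-like cells. With scaling by library size alone these medians were -0.12, -0.11 and -0.21. Replicate pools are shared by genotypes and populations, so numbers pair the sums, and deviations of paired sums correlated across genes at 0.21 to 0.55. SE is the absolute log2 fold change over the root of F. Shares were given with exact intervals and no test, from SciPy 1.17.1 (Python 3.11.15). Pathway genes were named by size of change, up to 4 in each direction, and like genes as the 3 of highest r; Smad1, Smad5, Bmpr1a and marker genes were named after their values were seen. Alternatives were a block, DESeq2 1.42.0, RLE, no low-count filter, each genotype and replicate left out in turn, marker gates, members kept in clustering, the stated limits, no integration and control sums only. The block was the genotype and replicate together between populations, and the replicate between genotypes. Leaving out a genotype and replicate took 1 sum from each population compared. A lower resolution (0.6), non-cycling arterial cells and macrophage clusters with Mrc1 only were added after seeing the data.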

Additional observations from a re-analysis of the deposited data

Results flagged for a closer look

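Id2 in venous-like cells of cKO replicate 2 stood apart, at 179 CPM where the other 3 sums had 82.1, 84.2 and 88.1 CPM. The gap to the nearest sum was above the critical value of Dixon's test for 4 samples, and chance gives about 1 such case in 20 groups; 57 groups were examined. That sum held 24 cells and 295 UMIs of Id2.

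Bmp4 differed in opposite directions between cKO and control, by -0.52 in arterial-like and by 1.00 in EHT-like cells on the log2(CPM + 1) scale (means of 2 replicates), with both replicates the same way in each population. The difference between the populations was not tested, and the EHT-like values rest on 1 to 6 UMIs per sum.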

How the results depend on the processing

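Between populations, 601 values of members under an alternative kept their direction and their side of the threshold, 23 lost the call, 17 gained it and 7 turned in direction, all 7 of them uncalled values in Kitl/Esm1 cells. Between genotypes, 220 kept both and 36 turned in direction, none of them called. Members called ranged from 8 to 10 for EHT-like, 1 to 5 for Kitl/Esm1, 3 to 9 for venous-like, 3 to 9 for Ptprc/Myb and 8 to 9 for macrophage-like cells, and were 0 for the genotype under every alternative run. The populations were rebuilt here from clusters, and marker gates, which 391 cells passed more than once, shared only 92 of their 251 EHT-like and 61 of their 224 Ptprc/Myb cells with them. Bmp4 and Tmem100 rested on few UMIs in several populations, and each genotype had 2 sums in each population.

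The number of genes called moved by over 1.5 times as follows, and the cause was not tested where sums were not fewer. In the control sums alone it was 1592 for EHT-like, 855 for Kitl/Esm1, 1059 for venous-like, 418 for Ptprc/Myb and 4088 for macrophage-like cells. With the block of genotype and replicate it was 2478 for Kitl/Esm1, 4107 for venous-like and 2737 for Ptprc/Myb cells. With the replicate block it was 11 for the genotype in arterial-like and 15 in EHT-like cells. Marker gates gave 841 for Kitl/Esm1 and 2748 for Ptprc/Myb cells, and the lower resolution 999 and 2412. With 1 sum left out the counts were 1066 to 1291 for Kitl/Esm1 (lowest without control replicate 1), 1526 to 2159 for venous-like (lowest without control replicate 1) and 565 to 905 for Ptprc/Myb cells (565 without control replicate 1 and 622 without control replicate 2), and 1 to 19 and 5 to 12 for the genotype in arterial-like and EHT-like cells. Without the low-count filter the genotype counts were 3 and 5. In EHT-like cells the genotype count was 2 with marker gates and 0 with RLE, with members kept in clustering, under the stated cell limits and at the lower resolution.

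Apart from the calls named with the results, neither block changed a call of a member. In Kitl/Esm1 against arterial-like cells, the sign turned with marker gates Smad7 (-0.26), Id3 (-0.044), at lower resolution Smad7 (-0.079) and in control sums only Id3 (-0.073). With 1 sum of each population left out, Bmpr2 ran from -0.14 to 0.064, Smad7 ran from -0.020 to 0.17 and Id3 ran from -0.027 to 0.20. In cKO against control in arterial-like cells, the sign turned with the replicate block Smad7 (-0.021), Tmem100 (-0.044), with RLE Tmem100 (-6.59e-04), without the low-count filter Tmem100 (-0.012), with marker gates Tmem100 (-0.016) and without integration Tmem100 (-0.0058). With 1 sum left out, Acvrl1 ran from -0.071 to 0.37, Eng ran from -0.16 to 0.26, Bmpr2 ran from -0.24 to 0.44, Smad7 ran from -0.47 to 0.40, Id1 ran from -0.30 to 0.46, Id2 ran from -0.48 to 0.54, Id3 ran from -0.48 to 0.10, Bmp4 ran from -1.31 to 0.043 and Tmem100 ran from -0.46 to 0.35. In cKO against control in EHT-like cells, the sign turned with marker gates Acvrl1 (-0.25), Eng (-0.041), Smad6 (-0.20), Id2 (-0.59), Tmem100 (-0.14) and at lower resolution Eng (-0.25), Id2 (-0.29), Tmem100 (-0.71). With 1 sum left out, Acvrl1 ran from -0.20 to 0.96, Bmpr2 ran from -0.42 to 0.81, Smad6 ran from -0.30 to 0.35, Id1 ran from -0.17 to 0.42, Id2 ran from -0.53 to 1.23, Id3 ran from -0.74 to 0.13 and Tmem100 ran from -1.08 to 6.30.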
